A study of Mus musculus with 24 samples.

Results

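Tight and gap junction genes were followed in livers of mice with pancreatitis. The 9 genes, chosen by symbol from the 55536 entries of the deposited expression table, were Cldn1, Cldn2, Cldn3, Cldn12, Cldn14, Ocln, Tjp1, Gjb1 and Gjb2, and each had 1 entry. RNA had been sequenced in 24 liver libraries, 8 of severe acute pancreatitis (SAP), 8 of acute pancreatitis (AP) and 8 of healthy controls (Con). All mice were wild-type Balb/c at 6 weeks of age, and no allele or transgene is named for any group. The sources used here do not give how pancreatitis was induced or when the livers were taken. Whether each library stands for its own mouse is not stated, so the p-values reflect variation among libraries, which may be technical. Counts of livers and n = 8 below are therefore counts of libraries. Levels are taken as TPM, an abundance divided by transcript length and scaled to the library, which can be compared between genes. That reading rests on the column totals, which cannot show division by length, so comparisons between genes depend on it. Depth is unknown, because TPM keeps no record of it.

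Tight junctions seal the bile canaliculus between neighbouring hepatocytes and keep bile apart from blood. Claudins are the membrane proteins that form the strands, and occludin is a membrane protein found in the strands beside them. Zonula occludens proteins are scaffolds that join these membrane proteins to the actin skeleton. Some claudins tighten the space between cells, and others form pores through it. Gap junctions are channels built of connexins through which hepatocytes share ions, calcium signals and small metabolites. In liver, the main connexin of hepatocytes is the product of Gjb1, and that of Gjb2 is found beside it.

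The livers expressed hepatocyte genes throughout. The summed level of 10 hepatocyte markers was 45906 to 64388 TPM in SAP, 58906 to 76111 in AP and 57149 to 65855 in Con. Of these markers 2 rose in SAP against Con, 4 fell and 4 did not pass. Tat, an enzyme of tyrosine breakdown, rose to 1554 ± 379.8 TPM in SAP, against 172 ± 42.9 in Con, and the fatty acid binding protein gene Fabp1 fell to 1834 ± 596 against 9443 ± 2679 TPM (limma adjusted p = 5.55e-13 and 2.73e-11). Exocrine pancreas was nearly absent. Amy2b, a pancreatic amylase, was listed at 0 in all libraries, and Prss2, a trypsinogen, reached 0.13 TPM in SAP, 0.12 in AP and 0.42 in Con, while Cela1, an elastase, made up most of that list's sum of 8.01 to 14.8, 16.4 to 26.3 and 17.1 to 41.6 TPM. In several of the genes below, SAP libraries 21, 22, 24 and 25 differed from 26 to 29, and calls that change when either set is left out are given with that value. These sets also differed in the number of genes above 0, which was 17140 to 17385 in SAP 21, 22, 24 and 25, 18180 to 18565 in SAP 26 to 29, 17341 to 17854 in AP and 17301 to 18478 in Con. Mitochondrial transcripts made up 2.80 to 6.26% of TPM in SAP, 7.81 to 13.7% in AP and 12.5 to 22.2% in Con. Serum amyloid A transcripts went the other way, with 7.37 to 12.4% in SAP, 0.302 to 1.28% in AP and 0.0508 to 1.14% in Con. The part of these shifts in the changes below was not tested. Of 10555 genes tested with limma on log2(TPM + 1), with an adjusted p under 0.05 as the threshold, 74% passed in SAP against Con, 5.48% in AP against Con and 72.1% in SAP against AP. All 9 junction genes passed the filter of a mean of at least 1 TPM.

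SAP livers had a different set of junction transcripts from control livers, in both directions. Cldn3 fell 8.69-fold, and Cldn1 and Gjb1 fell 2.25-fold and 2.29-fold. Cldn14 rose 4.87-fold and Cldn2 3.78-fold, while Gjb2, Tjp1 and Ocln rose by less, and Cldn12 did not pass. Folds are taken from log2(TPM + 1), and those of low genes are therefore understated. In limma 8 of the 9 genes passed, 5 higher and 3 lower, against a background of 44.2% of genes higher and 29.8% lower, so the share that passed is near that of all genes. Of all calls 59.7% were higher, but 47.5% with each library centred on its median, and 6 of the 9 genes then passed, 3 higher and 3 lower. The median size of the log2 change was 1.17 over the 9 genes and 0.78 over all genes tested, in either direction. In 4 of the 9 genes (Cldn2, Cldn3, Cldn14 and Gjb1) the 8 SAP livers did not overlap the 8 controls, which held for 37.8% of all genes (23.2% higher, 14.6% lower). Because whole liver was sequenced, fewer cells of a type and less RNA per cell cannot be told apart.

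**Figure D1:**
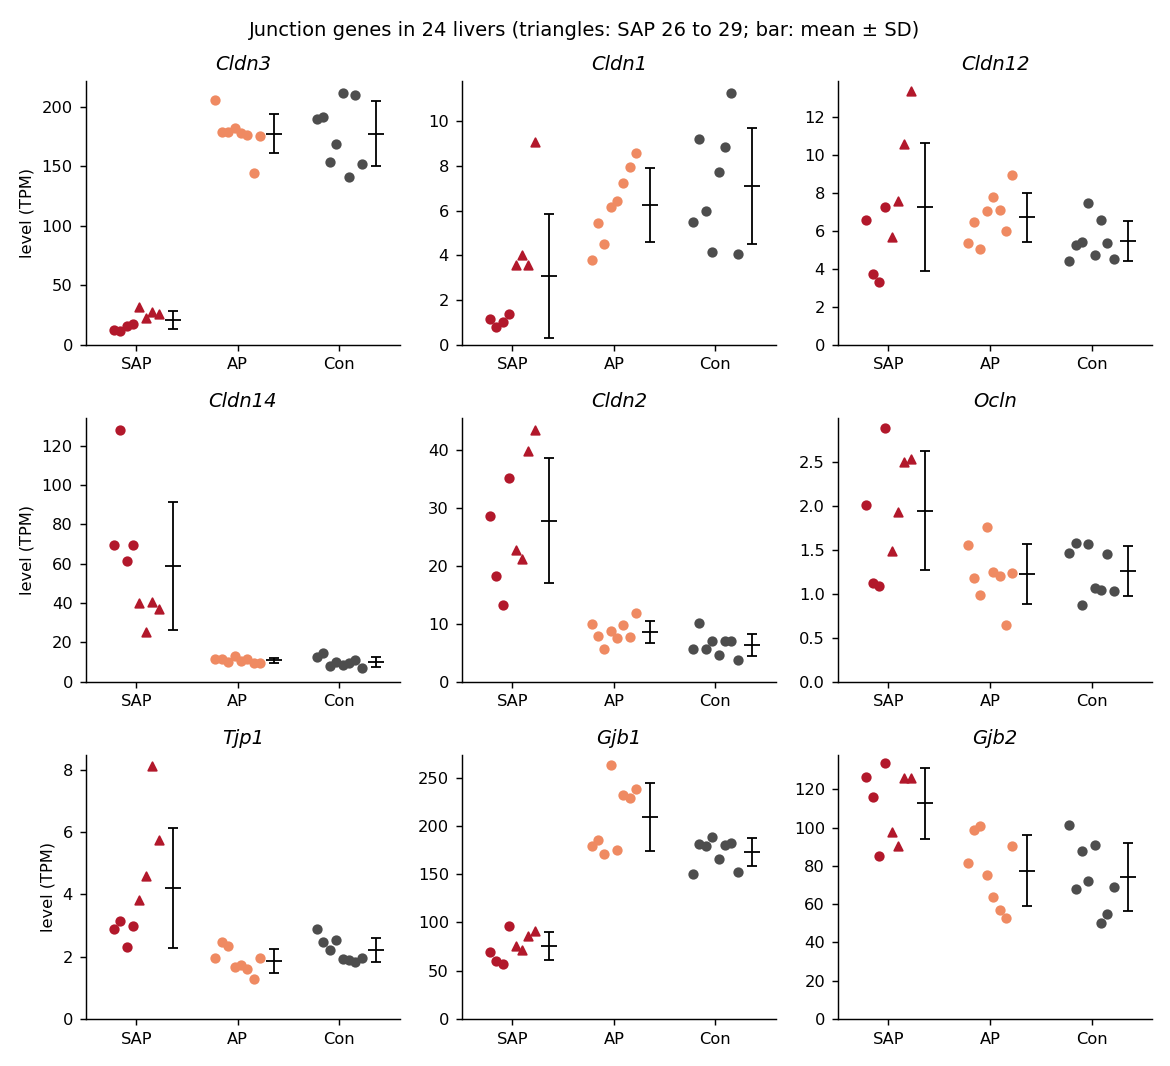
Level of each junction gene in TPM (vertical axes from 0) in SAP, AP and Con livers, 1 point per library, with the mean and SD of 8 libraries as a bar and SAP 26 to 29 as triangles. Cldn3 lay between 11.1 and 31.9 TPM in SAP livers, below all AP and control livers.

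Promoters of the claudins with the largest changes are shown because these genes moved in opposite directions. The windows run from 250 bases before to 50 after the gene start, 5′ to 3′ on the strand of the gene, from RefSeq on build GRCm38.p6, and capitals mark motif matches. Cldn2 and Cldn3 have 1 window each in that table. Cldn14 has 3, of which window 2 is printed because it holds matches. Cldn14 windows 1 and 3 hold 0 matches to any motif searched, and gene levels do not tell which start was used. The printed windows lie at chr16:93929768-93930067 on the minus strand (Cldn14), chrX:139800558-139800857 on the plus strand (Cldn2) and chr5:134985964-134986263 on the plus strand (Cldn3).
Cldn14: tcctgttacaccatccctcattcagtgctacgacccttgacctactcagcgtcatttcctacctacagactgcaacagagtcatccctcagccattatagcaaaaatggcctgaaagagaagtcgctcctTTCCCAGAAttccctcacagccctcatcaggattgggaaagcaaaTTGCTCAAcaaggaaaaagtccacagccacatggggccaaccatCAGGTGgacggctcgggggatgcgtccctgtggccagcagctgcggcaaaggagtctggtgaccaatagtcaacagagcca
Cldn2: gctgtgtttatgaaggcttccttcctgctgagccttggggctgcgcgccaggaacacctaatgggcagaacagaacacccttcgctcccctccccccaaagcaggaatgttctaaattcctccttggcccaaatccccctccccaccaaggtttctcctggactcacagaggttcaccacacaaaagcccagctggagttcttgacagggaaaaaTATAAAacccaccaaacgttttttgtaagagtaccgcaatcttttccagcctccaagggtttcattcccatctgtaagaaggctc
Cldn3: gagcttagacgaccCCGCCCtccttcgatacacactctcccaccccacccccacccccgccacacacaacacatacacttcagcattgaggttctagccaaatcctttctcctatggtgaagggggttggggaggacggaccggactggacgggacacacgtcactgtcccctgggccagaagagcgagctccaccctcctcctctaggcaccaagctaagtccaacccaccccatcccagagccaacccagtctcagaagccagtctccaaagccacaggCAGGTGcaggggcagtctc
In the Cldn14 window the capitals are, in order, a STAT motif (TTCNNNGAA), a C/EBP motif (TTGCNNAA) and an E-box of the kind bound by Snail proteins (CAGGTG). In Cldn2 they are a TATA box (TATAAA) starting 35 bases before the gene start, and in Cldn3 a GC box (GGGCGG, on the minus strand) and the same E-box. Of all 32851 windows of this length, 8.30% hold the STAT motif, 10.8% the C/EBP motif, 20.2% the E-box, 13.6% the TATA box and 35.7% the GC box. Both strands were searched, and no matches overlap in the printed windows. Motifs also searched included NF-kB (GGGA, any 4 bases, then CC), AP-1 (TGANTCA) and HNF4 (CAAAGTCCA), held by 20.7%, 7.81% and 0.475% of windows. Over the 17 windows of the 9 genes, STAT was found in 3 (2 of Cldn12, 1 of Cldn14), C/EBP in 1, NF-kB in 3 (1 each of Cldn12, Gjb2 and Ocln), the E-box in 6, the TATA box in 2 and the GC box in 9, with 0 matches to AP-1 or HNF4. Windows of the same gene can overlap. The 2 Cldn12 windows with a STAT match share that match and their GC box, and 1 E-box lies in both Ocln windows. Counts of windows are therefore not counts of separate sites. A match is a string of letters and not evidence of binding.

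Cldn3, a barrier-forming claudin of hepatocytes and bile ducts, was the most abundant of these claudins outside SAP. Its level was 11.1 TPM in the lowest SAP liver, 19.8 at the median and 31.9 in the highest, against 144, 178 and 206 TPM in AP and 141, 179 and 211 TPM in Con. All 8 SAP livers lay far below every other liver, and the AP and control ranges lay over each other. The means were 20.5 ± 7.60 TPM in SAP, 177 ± 16.6 in AP and 177 ± 27.3 in Con (SD, n = 8 each). The log2 change was -3.12 ± 0.17 (SE) in SAP against Con (limma adjusted p = 2.37e-14), and 2.69% of the genes tested changed by more. SAP against AP gave -3.13 ± 0.17 (limma adjusted p = 2.45e-14). Between AP and Con the log2 change was 0.01, with a 95% interval of -0.33 to 0.36. Within SAP, libraries 21, 22, 24 and 25 had 11.1 to 17.0 TPM and libraries 26 to 29 had 22.6 to 31.9.

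Cldn1, a claudin needed for barrier function in skin and found in hepatocytes and bile ducts, was less abundant. SAP livers had 0.77 TPM at the lowest, 2.455 at the median and 9.06 at the highest, against 3.78, 6.29 and 8.57 TPM in AP and 4.05, 6.845 and 11.25 in Con. Of 8 SAP livers 7 lay below every control, and SAP 29, at 9.06 TPM, lay among the controls. It fell by 1.17 ± 0.28 on the log2 scale in SAP against Con (limma adjusted p = 0.000672) and by 1.05 ± 0.28 in SAP against AP (limma adjusted p = 0.00203). The fall was deeper in part of the SAP livers. Libraries 21, 22, 24 and 25 had 1.16, 0.77, 1.01 and 1.35 TPM, and libraries 26 to 29 had 3.56, 4.02, 3.58 and 9.06. Without the first set, the log2 change against Con was -0.44 and did not pass (limma adjusted p = 0.127), nor did that against AP (-0.31, limma adjusted p = 0.278). Without SAP 26 to 29 the log2 changes were -1.91 against Con and -1.78 against AP.

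Cldn14, a claudin that in mice limits cation passage in the inner ear and the thick ascending limb of the kidney, had the largest rise. It was at 25.2 TPM in the lowest SAP liver, 51.1 at the median and 128 in the highest, against 9.34, 10.955 and 13.3 TPM in AP and 7.20, 9.70 and 14.7 in Con. Each SAP liver lay above all AP and control livers. Means were 58.9 ± 32.3 TPM in SAP, 10.9 ± 1.32 in AP and 10.2 ± 2.46 in Con (SD, n = 8 each). The log2 change was 2.28 ± 0.22 in SAP against Con (limma adjusted p = 1.02e-09) and 2.17 ± 0.22 in SAP against AP (limma adjusted p = 2.81e-09). SAP livers differed among themselves in the reverse order to Cldn3. Libraries 21, 22, 24 and 25 had 69.3, 128, 61.6 and 69.6 TPM, all above libraries 26 to 29 with 39.9, 25.2, 40.6 and 36.7.

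Cldn2 forms a pore for cations and water, and in mouse liver it takes part in bile flow. SAP livers had 13.2 TPM at the lowest, 25.7 at the median and 43.6 at the highest, against 5.67, 8.325 and 11.8 TPM in AP and 3.81, 6.345 and 10.1 in Con. The SAP livers did not overlap either of the other groups. The log2 change was 1.92 ± 0.20 in SAP against Con (limma adjusted p = 6.86e-09) and 1.51 ± 0.20 in SAP against AP (limma adjusted p = 3.93e-07). In AP against Con it was 0.41 with a 95% interval of -0.02 to 0.83, and 1 of 8 AP livers exceeded the controls (limma adjusted p = 0.262).

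Cldn12, a claudin whose tail lacks the usual site for binding scaffold proteins, did not pass in any comparison. It was at 3.29 TPM in the lowest SAP liver, 6.91 at the median and 13.4 in the highest, against 5.04, 6.76 and 8.97 TPM in AP and 4.43, 5.31 and 7.49 in Con. SAP livers spread to both sides, with 3 above and 2 below every control. The log2 change in SAP against Con was 0.26, with a 95% interval of -0.13 to 0.65 (limma adjusted p = 0.211). Without SAP 21, 22, 24 and 25 it was 0.63 and passed (limma adjusted p = 0.00327), and without SAP 26 to 29 it was -0.10 (limma adjusted p = 0.615).

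The make-up of the claudin transcripts differed too, and shares within a library do not depend on scaling between libraries. Cldn3 held 6.87 to 30.7% of the summed TPM of the 5 claudins in SAP livers, against 81.8 to 87.5% in AP and 81.6 to 89.2% in Con. Cldn14 held 28.5 to 79.0% in SAP, 4.43 to 6.13% in AP and 3.61 to 6.36% in Con, and Cldn2 held 11.3 to 33.9%, 2.78 to 5.53% and 1.92 to 4.37% in the same groups. The sum itself was 80.6 to 162 TPM in SAP, 175 to 237 in AP and 171 to 245 in Con. The order of mean levels in SAP livers was Cldn14, Cldn2, Cldn3, Cldn12 and Cldn1, with ranges of neighbours that overlap, and in control livers it was Cldn3, Cldn14, Cldn1, Cldn2 and Cldn12, where Cldn3 stood clear of the rest. These shares are given with no test. Shares and order within a group depend on division by transcript length, which is not established.

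Cldn3 and Cldn1 are also made by bile duct cells. Of 8 cholangiocyte markers 3 could be tested, of which 2 rose in SAP against Con, among them Spp1 (limma adjusted p = 3.12e-06), while Krt19 did not pass. The summed level of the 8 was 28.7 to 85.6 TPM in SAP, 15.3 to 38.2 in AP and 14.4 to 30.5 in Con, mostly Spp1, which injured hepatocytes and macrophages also express. The other 5 were below the filter. Sox9, a transcription factor of bile duct cells, was at 0.58 to 7.06 TPM in SAP, 0.07 to 0.26 in AP and 0.03 to 0.44 in Con, and the adhesion molecule gene Epcam at 0.48 to 4.28, 0.16 to 0.91 and 0.04 to 0.37 TPM. In both, all 8 SAP livers lay above every control. Tspan8 reached 1.21 TPM in SAP, 0.26 in AP and 0.44 in Con, Krt7 reached 0.49, 0.99 and 0.59, and Cftr was at 0 to 0.02 TPM throughout. The part of this list in the claudin levels was not tested. In the annotation, Wbscr25 overlaps Cldn3 on the opposite strand, at 0 to 0.1 TPM in these libraries. Gm44792, a predicted gene, overlaps Tjp1 on the same strand. Gm44792 was at 0.56 to 1.35 TPM in SAP, 0 to 0.83 in AP and 0.21 to 0.55 in Con, with all SAP livers above every control. Its part in the Tjp1 level was not tested, and the other 3 predicted genes that overlap members were listed at 0. The 9 genes' transcripts were also cut into consecutive 50-base windows that do not overlap, and none of these occurs in another gene. Shared stretches that are short or straddle neighbouring windows could be missed in this way.

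**Figure D2:**
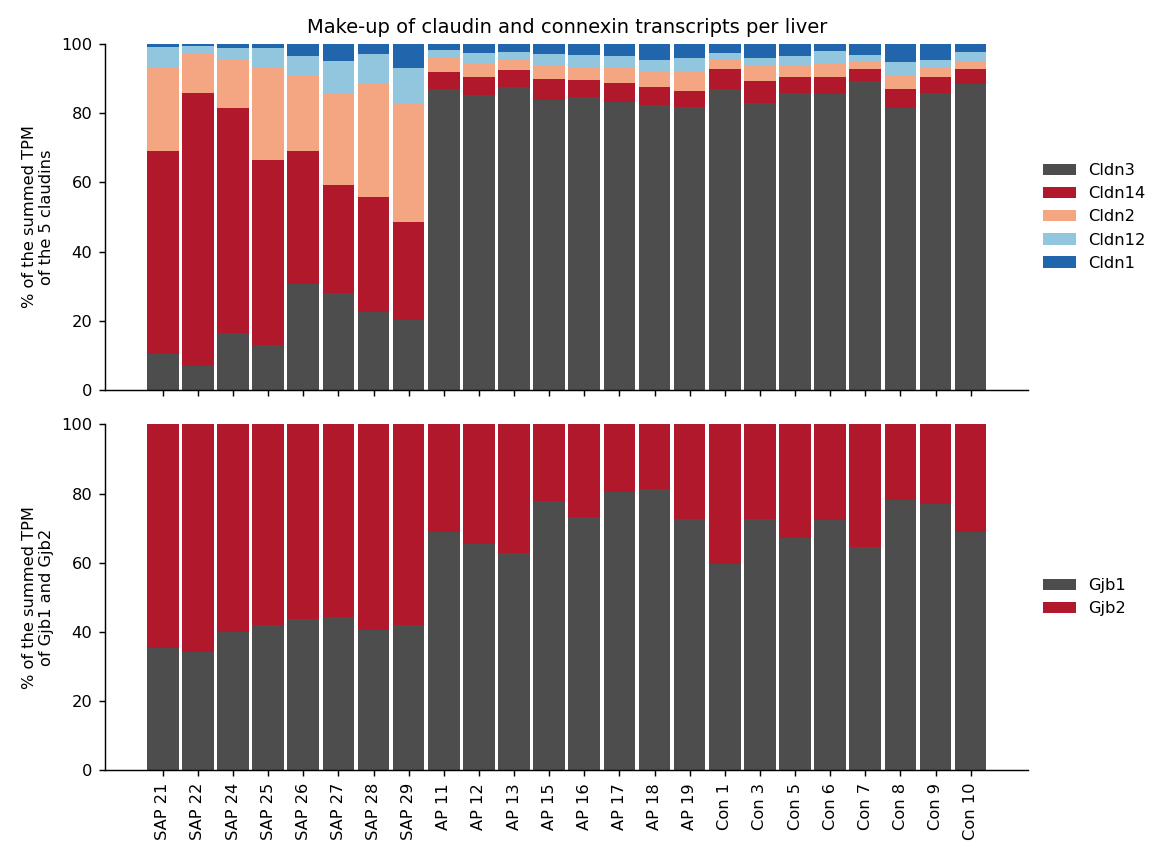
Share of each claudin in the summed TPM of the 5 claudins (top, %) and of Gjb1 and Gjb2 in their sum (bottom), 1 bar per library, SAP, AP and Con livers from left to right. Cldn3 holds 6.87 to 30.7% in SAP livers and 81.6 to 89.2% in Con livers.

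Occludin and the scaffold protein ZO-1, encoded by Ocln and Tjp1, rose modestly at low levels. Ocln was at 1.09, 1.97 and 2.88 TPM (lowest, median and highest) in SAP, 0.64, 1.22 and 1.76 in AP and 0.87, 1.26 and 1.57 in Con. Of 8 SAP livers 5 lay above every control. Ocln rose by 0.36 ± 0.14 on the log2 scale in SAP against Con (limma adjusted p = 0.0201) and by 0.38 ± 0.14 in SAP against AP (limma adjusted p = 0.0140). The call against Con was lost without SAP 25 (limma adjusted p = 0.0518), with quantile normalization (0.0808) with centring of each library on its median (0.447) and without SAP 26 to 29 (0.158). Against AP it was also lost with quantile normalization (0.0643), with centring (0.145), and without SAP 26 to 29 (0.125). Without AP 11, 12, 13 and 16 the log2 change against AP was 0.40 ± 0.18, as large as with all livers but with a wider error (limma adjusted p = 0.056). Tjp1 was at 2.32, 3.47 and 8.12 TPM in SAP, 1.27, 1.83 and 2.46 in AP and 1.82, 2.09 and 2.90 in Con. Here 6 of 8 SAP livers lay above every control and 7 of 8 above every AP liver. Tjp1 rose by 0.63 ± 0.16 on the log2 scale in SAP against Con (limma adjusted p = 0.00099) and by 0.80 ± 0.16 in SAP against AP (limma adjusted p = 8.36e-05). Libraries 21, 22, 24 and 25 had 2.88, 3.13, 2.32 and 2.99 TPM and libraries 26 to 29 had 3.81, 4.60, 8.12 and 5.74. Without the second set the change against Con was 0.26 and did not pass (limma adjusted p = 0.0604).

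The 2 connexins moved apart. Gjb1 was at 56.5, 73.8 and 96.5 TPM (lowest, median and highest) in SAP, 171, 207 and 263 in AP and 150.4, 179.8 and 188 in Con. All SAP livers lay below every AP and control liver. Means were 75.8 ± 14.3 TPM in SAP, 209 ± 35.4 in AP and 173 ± 14.5 in Con (SD, n = 8 each). The log2 change was -1.19 ± 0.12 in SAP against Con (limma adjusted p = 1.62e-09) and -1.46 ± 0.12 in SAP against AP (limma adjusted p = 5.23e-11). Gjb2 was at 85.0, 121 and 134 TPM in SAP, 52.9, 78.5 and 101 in AP and 50.2, 70.5 and 101 in Con. Of 8 SAP livers 5 lay above every control, and the rest lay within the upper part of the control range. Gjb2 rose by 0.61 ± 0.16 on the log2 scale in SAP against Con (limma adjusted p = 0.00122) and by 0.55 ± 0.16 in SAP against AP (limma adjusted p = 0.00318). With centring on the median neither call held (0.0726 and 0.0816), and the directions were kept.

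In the deposited values Gjb2 exceeded Gjb1 in every SAP liver and was below it in every other liver. This order depends on division by transcript length, which is not established. The longest transcripts differ, at 2406 bases for Gjb2 and 1585 for Gjb1. The separation of SAP from the other livers does not depend on that division, if transcript lengths are the same in all libraries. The ratio of Gjb2 to Gjb1 was 1.26 to 1.93 in SAP, 0.231 to 0.591 in AP and 0.278 to 0.674 in Con, given with no test. Their summed level was 142 to 230.2 TPM in SAP, 239 to 338 in AP and 221 to 267 in Con. Zonation markers did not move as a block. Of 6 pericentral genes tested, Glul (glutamine synthetase) and Cyp2e1 (a cytochrome P450) rose in SAP against Con, and 2 fell (Cyp1a2 and Tbx3). Cyp2e1 averaged 2381 TPM in SAP, 3055 in AP and 1374 in Con. Cyp2e1 and Slc1a2 were also higher in AP against Con (limma adjusted p = 0.000494 and 0.0185). The pericentral list summed to 1917 to 3831 TPM in SAP, 2775 to 4826 in AP and 1281 to 2694 in Con. Of 8 periportal genes Arg1 (arginase) and Hsd17b13 (a lipid droplet enzyme) rose and 3 fell (Hal, Gls2 and Cyp2f2). The periportal sums were 1328 to 2297, 687 to 1893 and 969 to 1419.6 TPM in the same groups. Their part in the connexin and claudin levels was not tested.

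**Figure D3:**
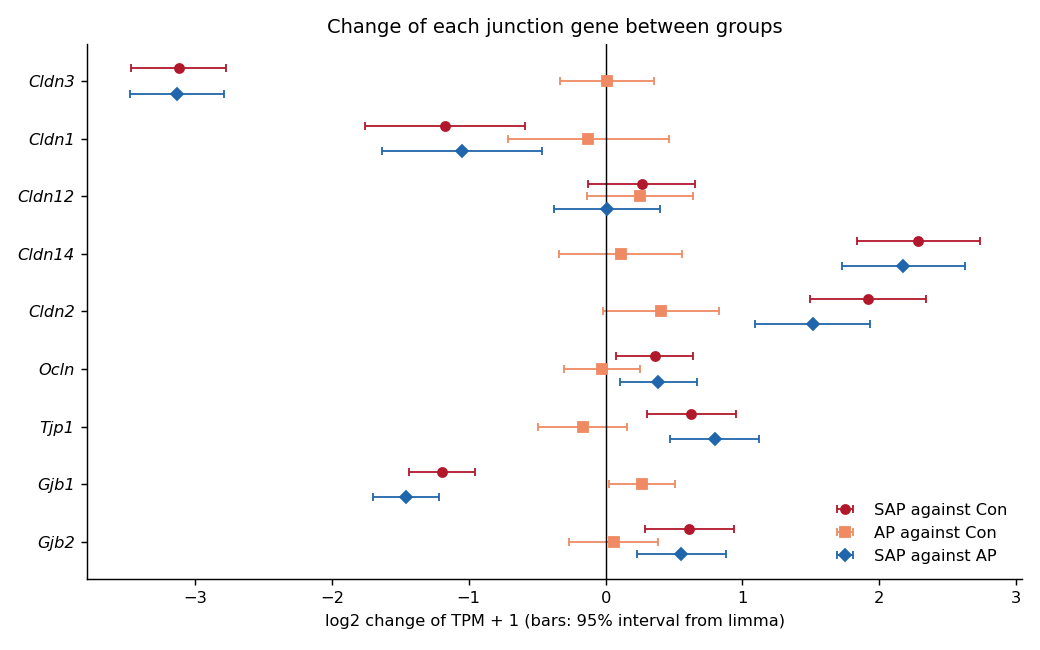
log2 change of TPM + 1 of each junction gene (horizontal axis) with its 95% interval from limma, for SAP against Con, AP against Con and SAP against AP. Cldn3 lies at -3.12 in SAP against Con and at 0.01 in AP against Con.

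AP livers were compared with controls to see which of these genes differ in the milder disease. In limma 0 of the 9 genes passed, against a background of 5.48% (4.35% higher, 1.13% lower), and 1 had an unadjusted p under 0.05. That gene was Gjb1, with a log2 change of 0.26 ± 0.12, and 4 of 8 AP livers exceeded the highest control (limma adjusted p = 0.193). The AP livers above the controls were 15, 17, 18 and 19, with 263, 232, 229 and 238 TPM, while 11, 12, 13 and 16 had 179.7, 186, 171 and 175, within the control range. Log2 changes of the other genes lay between -0.17 (Tjp1) and 0.41 (Cldn2), and the widest 95% interval was that of Cldn1, from -0.71 to 0.46. In 0 of the 9 genes were AP livers clear of the controls, against 0.748% of all genes (0.644% higher, 0.104% lower). The median log2 change was 0.06 for the 9 genes and 0.06 for all genes tested.

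SAP livers were also set directly against AP livers. In limma 8 of 9 genes passed, 5 higher and 3 lower, against a background of 41% higher and 31% lower. The 4 genes whose SAP livers did not overlap the AP livers were Cldn2, Cldn3, Cldn14 and Gjb1, and 37.3% of all genes did not overlap (22% higher, 15.2% lower). This comparison and that with Con use the same SAP libraries. Leaving out AP 15, 17, 18 and 19 brought the count to 5, since Cldn1, Ocln and Gjb2 then missed the threshold (limma adjusted p = 0.0599, 0.0617 and 0.0702). With 4 AP livers their log2 changes were -0.80 ± 0.36 for Cldn1, 0.37 ± 0.17 for Ocln and 0.39 ± 0.18 for Gjb2, against -1.05 ± 0.28, 0.38 ± 0.14 and 0.55 ± 0.16 with all 8.

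Other genes of cell junctions moved in both directions in SAP livers. Of 21 further claudin and claudin-like genes in the table, 2 passed the filter on low values. Cldn5, the claudin of endothelium, fell to 1.20 ± 1.53 TPM in SAP, against 5.30 ± 1.23 in Con (limma adjusted p = 3.06e-07). Its SAP median was 0.71 TPM, with 7 of 8 livers below every control and the highest, at 4.93 TPM, within the control range. Cldnd1, a claudin-like membrane protein, rose to 7.21 ± 2.37 TPM in SAP, against 1.86 ± 0.386 in Con (limma adjusted p = 2.49e-09). Cldn7, an epithelial claudin below the filter, had medians of 1.46 TPM in SAP and 0.38 in Con, and 8 claudins were listed at 0 in all libraries. Among 10 tested tight junction membrane proteins outside the claudins 5 rose, 2 fell and 3 did not pass. Esam, an adhesion molecule of endothelium and platelets, rose to 8.42 ± 2.31 TPM in SAP, against 2.34 ± 0.579 in Con (limma adjusted p = 4.59e-09). Marveld1 fell to 1.40 ± 1.00 TPM in SAP, against 5.52 ± 1.57 in Con (limma adjusted p = 1.46e-06), and the polarity protein gene Crb3 fell to 8.97 ± 3.24 against 18.8 ± 2.59 TPM (limma adjusted p = 1.87e-06).

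Scaffold and polarity genes divided almost evenly. Of 17 tested, 5 rose in SAP against Con, 6 fell and 6 did not pass. Pard3 and Prkcz, a scaffold and a kinase of the PAR polarity complex, fell. Pard3 was at 10.1 ± 2.79 TPM in SAP and 19.0 ± 1.57 in Con (limma adjusted p = 7.28e-07). Prkcz was at 3.54 ± 1.43 TPM in SAP and 11.7 ± 3.10 in Con (limma adjusted p = 2.13e-08).

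The other connexins and pannexins were scarce. Of 21 genes 1 passed the filter, Gja4, a connexin of arterial endothelium, which rose to 9.80 ± 3.74 TPM in SAP, against 2.46 ± 1.00 in Con, in all 8 livers above every control (limma adjusted p = 9.90e-08). Gja1, a widely expressed connexin below the filter, had medians of 2.105 TPM in SAP and 0.29 in Con. Of 7 endothelial markers tested 3 rose and 3 fell in SAP against Con, with a summed level over 8 markers of 21.1 to 63.7 TPM in SAP, 34.0 to 70.0 in AP and 41.8 to 83.2 in Con. Lyve1 rose to 11.2 ± 5.13 TPM in SAP, against 0.301 ± 0.158 in Con, and Clec4g fell to 3.01 ± 1.05 against 17.8 ± 6.21 TPM (limma adjusted p = 2.15e-12 and 2.44e-09). The part of endothelium in Cldn5, Esam and Gja4 was not tested.

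Of 11 adherens junction genes tested 5 rose, 2 fell and 4 did not pass. Afdn, which links nectins to actin, rose to 22.8 ± 7.35 TPM in SAP, against 7.43 ± 1.19 in Con (limma adjusted p = 4.67e-09). Ctnna1, the alpha-catenin of epithelia, rose to 24.9 ± 5.52 against 11.5 ± 1.34 TPM (limma adjusted p = 5.70e-08), and Nectin3 fell to 3.12 ± 1.23 against 6.04 ± 1.22 TPM (limma adjusted p = 3.65e-05). Of 6 desmosome genes tested 3 rose, 1 fell and 2 did not pass. Pkp2 and Dsp, which build the desmosomal plaque, rose to 11.4 ± 2.21 and 2.74 ± 1.22 TPM in SAP, against 4.29 ± 0.617 and 0.650 ± 0.262 in Con (limma adjusted p = 8.77e-10 and 1.61e-06), while Pkp4 fell to 5.36 ± 1.80 against 14.3 ± 3.21 TPM (limma adjusted p = 1.04e-07). Among 13 tested regulators of junctions 3 rose, 5 fell and 5 did not pass. Mylk, the myosin light chain kinase, fell to 2.26 ± 0.865 TPM in SAP, against 8.37 ± 1.14 in Con (limma adjusted p = 5.06e-11), and the polarity kinase gene Stk11 fell to 31.1 ± 3.49 against 64.6 ± 10.7 TPM (limma adjusted p = 3.22e-09). Zeb2, a transcription factor that represses E-cadherin, was the one gene of these 7 lists that passed between AP and Con, at 0.433 ± 0.151 TPM in SAP, 1.29 ± 0.454 in AP and 2.65 ± 1.18 in Con (limma adjusted p = 0.0252 in AP against Con).

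**Figure D4:**
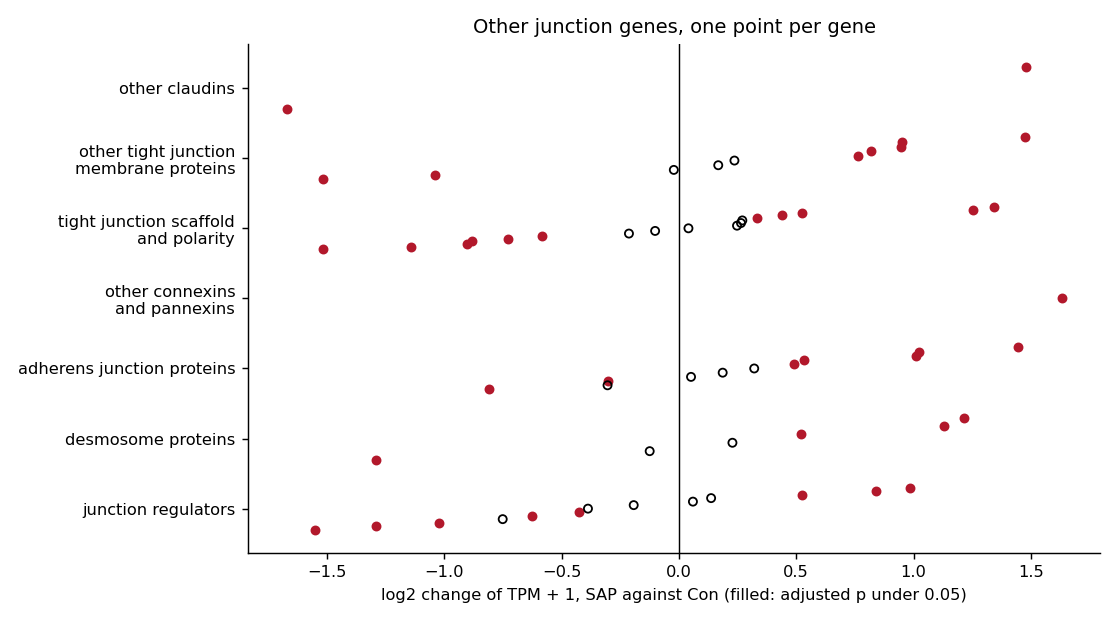
log2 change of TPM + 1 in SAP against Con (horizontal axis) for each tested gene of the other junction lists, 1 point per gene, filled where the limma adjusted p was under 0.05. Points lie on both sides of 0 in all lists but that of connexins and pannexins, where 1 gene was tested.

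Non-parenchymal markers moved with SAP as well. Of 8 neutrophil markers 3 were tested and rose in SAP against Con, among them S100a9 and Retnlg (limma adjusted p = 2.59e-12 and 1.14e-12), and the list summed to 124 to 348 TPM in SAP, 3.74 to 7.63 in AP and 2.48 to 28.7 in Con. Of 5 stellate cell markers tested 3 rose and 2 fell (Dcn higher, Colec11 lower), with sums of 55.1 to 122, 15.7 to 49.7 and 31.2 to 55.7 TPM. Of 6 Kupffer cell markers tested Marco rose and 5 fell, Cd5l among them, with sums of 44.0 to 87.9, 40.6 to 126 and 56.6 to 216 TPM. The part of these cells in the junction genes was not tested.

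Profiles over all 24 libraries were compared after each gene's log2 values had been standardised to a mean of 0 and an SD of 1. The gene closest to Cldn3 was Plxnb2, a semaphorin receptor, with a mean absolute difference of 0.105 SD, followed by Irf3, a transcription factor of antiviral responses (0.114). Closest to Cldn14 were Plscr1, a phospholipid scramblase (0.122), and Rela, an NF-kB subunit (0.153), and closest to Cldn2 were Gak, a kinase of clathrin uncoating (0.159), and Cldnd1 (0.164). Plscr1 averaged 278 ± 200.2 TPM in SAP, 5.11 ± 1.27 in AP and 4.83 ± 2.86 in Con. Gjb1 was nearest to Mthfd1, a folate enzyme (0.140), and Acy3, an aminoacylase (0.149), and Tjp1 to Npm1, a nucleolar protein (0.234), and Tmod3, a tropomodulin (0.262). Cldn1 was nearest to Fzd7, a Wnt receptor (0.280), and Dcun1d2 (0.320). Less close were the neighbours of Ocln (Wdsub1 0.348, Ppp1r13b 0.374), Cldn12 (Gzf1 0.366, Prkacb 0.376) and Gjb2 (Enpp4 0.406, Usb1 0.420). Among the 9 genes themselves the closest pair was Cldn3 and Gjb1 (0.293), ahead of Cldn2 and Cldn14 (0.400). All these profiles share the same libraries and the difference between SAP and the other livers, so the distances are a description.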

How the data were processed

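The values are levels per gene as the authors deposited them, taken as TPM. That reading rests on the values themselves, since columns sum to 986423 to 993642, nearly the same total in each library. Totals near 1000000 would also come from counts scaled to the library without division by length, so that division is not established. Per the submitters' processing notes edgeR was used, with no version. Aligner, genome build and annotation: not given in the sources used here. Libraries had been made from total RNA of frozen liver, per the labels. All columns were mapped to samples by title, 8 libraries per group.

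Tests ran on log2(TPM + 1) for the 10555 genes that averaged 1 TPM or more, leaving out 44981. One limma model (version 3.58.1, R 4.3.3) with group as its factor and the trend option covered all 24 libraries, with 21 residual degrees of freedom and Benjamini-Hochberg adjustment over all genes tested. Intervals are at 95%. The procedure was tested on simulated data in which 200 of 10555 genes changed, and 84% of these were recovered. Far more genes, 7808, passed in SAP against Con, a setting that the simulation did not cover. Named genes were all 9 members, the 3 with the smallest F-test p in each of 7 other lists of junction genes, 2 in each of 9 marker lists, and the 2 genes closest in profile to each member, predicted genes left out, and a few of these are not reported here. Cldn7, Gja1, Krt19, Krt7, Cftr, Sox9, Epcam, Tspan8, Gm44792, Amy2b and Prss2 were named after their values were seen. So were Cyp1a2, Tbx3, Slc1a2, Hal, Gls2 and Cyp2f2. The members and lists were chosen with earlier results of these data known. Alternatives were other pseudocounts, filters and scalings, no trend, the 2 groups alone, and leaving out libraries. GENCODE M21 gave overlapping genes, and promoters came from RefSeq on GRCm38.p6, where all 9 genes had an entry.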

Additional observations from a re-analysis of the deposited data

Results flagged for a closer look

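In 2 of 27 sets of 8 libraries (9 genes in 3 groups) 1 library stood far from the rest, by Dixon's ratio of its gap to the nearest library over the whole range, and chance flags about 1 in 20 sets. Cldn1 was at 9.06 TPM in SAP 29, while the next highest SAP liver had 4.02, a ratio of 0.608. Without SAP 29 the log2 change of Cldn1 was -1.39 in SAP against Con and -1.27 in SAP against AP. Cldn14 was at 127.88 TPM in SAP 22, with 69.6 in the next liver, a ratio of 0.568. Without SAP 22 the log2 change of Cldn14 was 2.10 in SAP against Con and 1.99 in SAP against AP.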

How the results depend on the processing

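The calls of Cldn2, Cldn3, Cldn14 and Gjb1 in SAP against Con and against AP held under every alternative run. Without each library in turn, 7 to 8 of the 9 genes passed in SAP against Con, 8 in SAP against AP and 0 in AP against Con. Without AP 15, 17, 18 and 19 the count in SAP against AP was 5, and without AP 11, 12, 13 and 16 it was 1 in AP against Con, Gjb1, whose 4 remaining AP livers are those above every control, so this pass is no support for a rise. Over all genes, AP against Con gave 578 calls, but 222 with no filter, 1006 with centring on the median, 877 without SAP 26 to 29, 11 without AP 15, 17, 18 and 19, 1229 without AP 11, 12, 13 and 16, and 179 to 840 without 1 library, with 184, 211, 352 and 238 without AP 15, 17, 18 or 19 and 209, 179 and 225 without Con 1, 7 or 10. The causes were not tested.

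Signs turned round only for changes that did not pass. Cldn12 in SAP against Con was -0.000287 with quantile normalization, -0.0128 with centring and -0.10 without SAP 26 to 29. In SAP against AP it was -0.00219 and -0.0039 with pseudocounts of 0.1 and 0.01, -0.19 with quantile normalization, -0.21 with centring, -0.35 without SAP 26 to 29, -0.0956 without AP 11, 12, 13 and 16, and -0.12 to 0.13 without 1 library. In AP against Con, Cldn3 was -0.17 with quantile normalization, -0.0405 with centring, -0.13 with rescaling without the 50 most abundant genes, -0.0558 without AP 11, 12, 13 and 16, and -0.0337 to 0.0521 without 1 library. Gjb2 was -0.13, -0.0746 with that rescaling, -0.11 without those AP livers and -0.014 to 0.13. Cldn14 was -0.0121 with rescaling, Cldn1 0.13 without those AP livers, and Ocln -0.0719 to 0.0354 without 1 library.

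Scaling sets the split of calls. Of all calls in SAP against Con 59.7% were higher, and 47.5% with centring, where the median log2 change was -0.06 against 0.21. In SAP against AP the shares were 56.9% and 46.4% (medians 0.13 and -0.10), and rescaling gave a median of 0.25. In AP against Con they were 79.4%, 59.4% with quantile normalization and 47.4% with rescaling (medians 0.06, 0.01 and -0.06). No paired analysis was possible because the groups share no replicate numbers. The depth is unknown, so the precision of low levels such as those of Ocln cannot be stated.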
